A study of Triticum aestivum with 8 samples.

Results

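The response of the crown of a freeze-resistant (FR) winter wheat line to cold acclimation was described from 4 of the 8 arrays of the study. These were the 2 arrays of cold-acclimated FR crowns (FR CA) and the 2 arrays of non-acclimated FR crowns (FR NT). The members are thus the arrays that the deposited labels give to the FR line, and all 61115 wheat probe sets were compared on them. The other 4 arrays hold cold-acclimated and non-acclimated crowns of a freeze-susceptible line (FS CA and FS NT, 2 arrays each), and they entered the estimate of the spread between arrays and the test of whether the lines differed. Both lines descend from azide-mutagenised winter wheat of the cultivar Winoka. CA plants were kept at 4°C for 4 weeks, and NT plants at 25°C as the labels give it. The CA plants were harvested after those 4 weeks and were therefore also older than the NT plants. By the study's methods they had been moved from the greenhouse to a cold chamber, whose light is not stated. Cold, plant age and place of growth thus cannot be told apart here. RNA of 3 biological replicates was pooled for each array and the arrays of a group are technical replicates, so that every p-value below measures only the spread between arrays.

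The crown is the short stem base of the wheat plant. It carries the shoot meristem and the buds from which a winter cereal regrows in spring. Low temperature above freezing brings the plant into a state in which the crown survives frost. This state is known for late embryogenesis abundant (LEA) proteins and dehydrins, hydrophilic proteins that protect dehydrated cells, for soluble sugars, and for slowed growth. The heat maps of the study cover vernalization genes, Cbf genes, which code for transcription factors that bind cold-response elements, and Cor/Lea genes. The Cbf and Cor/Lea genes that could be matched to a symbol were left out below.

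The values are log2 signals in which a step of 1 is a 2-fold change. Between 31.9% and 32.6% of the probe sets of an FR array stood at the floor of 2.15, and the medians of the 4 FR arrays lay between 2.87 and 2.95. A probe set was called changed at an adjusted p under 0.05 in limma over all 61115 tested. For single genes, a fold change from or to a signal under the array median is given as a bound ("at least"), with that signal raised to the median. Changes on the log2 scale and counts by size use the values as deposited. The FR CA arrays correlated with each other at 0.995 and the FR NT arrays also at 0.995, while FR CA arrays correlated with FR NT arrays at 0.917 to 0.921. Spike-in transcripts with a poly-A tail (36 probe sets) averaged 9.37 and 9.84 on the FR CA arrays, against 8.69 and 9.11 on the FR NT arrays. They were thus 0.70 higher in FR CA. Such transcripts are meant to go into each sample in equal amounts, but the study does not state how they were added. Values given below relative to the spike-ins rest on that assumption. Leaf markers also differed. The mean signal of 5 photosynthesis genes was 11.59 and 11.55 in FR CA, against 14.13 and 14.32 in FR NT. The probe sets of the 8 seed storage genes lay under the array median in 15 of 17 cases on each FR array. The array annotation gave no match for the meristem markers (the KNOX genes), so the identity of the crown tissue was not checked with them. The 3′ probe set of sucrose synthase exceeded its 5′ probe set by 5.37 and 7.48 in FR CA, against 5.24 and 7.04 in FR NT, so that the arrays of replicate 2 showed the larger 3′ excess in both groups.

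In FR crowns 17687 probe sets (28.9%) were called changed between FR CA and FR NT. Of these, 9363 were higher (15.3% of those tested) and 8324 were lower (13.6%). The FR arrays of the 2 groups did not overlap for any of the 17687, which the call itself nearly ensures and which is no separate support. Among the 31555 probe sets above the array median on both arrays of at least 1 group, 29.3% were called higher and 26.0% lower, and 14644 of all probe sets were at the floor on all 8 arrays. The split between rises and falls depended on the scale. As deposited, 52.9% of the calls were rises. With each array centred on its spike-ins the share was 11.2%, or 26.6% when probe sets under the median were left out (4696 higher and 12963 lower). It was 78.2% with each array centred on its median and 22.3% with low values raised to the median. A rise of under 0.70 is therefore a fall relative to the spike-ins.

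As deposited, the rises were more numerous and the falls were larger. The median rise of the called probe sets was 1.46 on the log2 scale (2.74-fold, middle 50% from 0.93 to 2.19). The median fall was -1.76 (3.39-fold, middle 50% from -2.95 to -1.03). At least a 2-fold change was seen for 6687 of the called rises and 6346 of the called falls. At 8-fold and over the balance was the other way, with 1094 rises and 2027 falls. At 32-fold and over there were 296 rises and 657 falls, and at 256-fold and over 85 rises and 104 falls. Small changes were also called. The change was under 0.5 on the log2 scale for 1085 probe sets. On the other side, 1846 probe sets differed by 2-fold or more and were not called. Of the 31555 probe sets above the median, 9993 had a 95% interval that lay wholly within a 2-fold change in either direction, and 2168 of these were called.

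**Figure D1:**
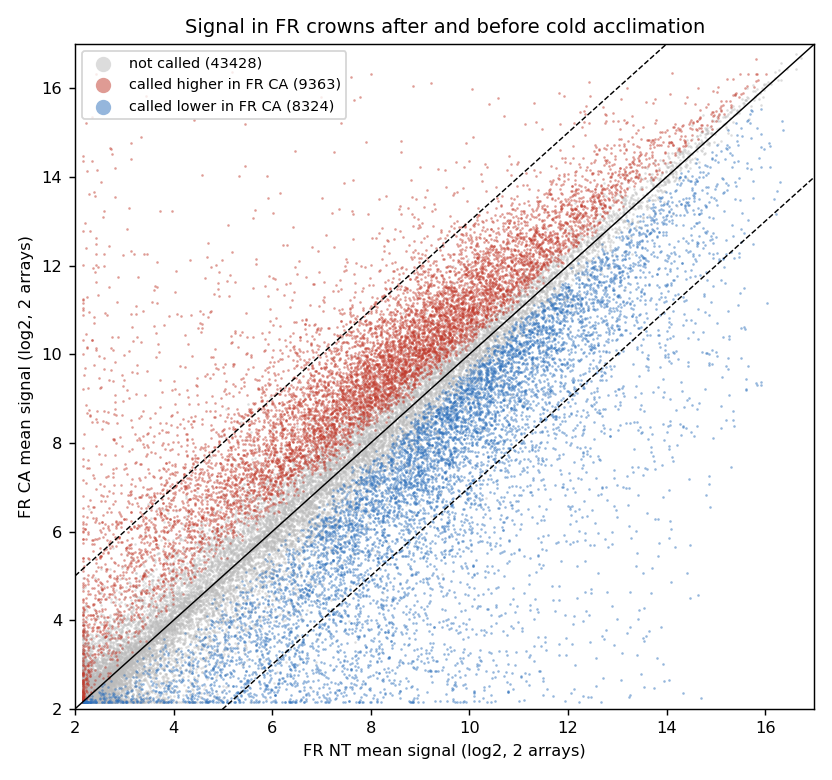
Mean log2 signal of each of the 61115 probe sets in FR CA (vertical axis) against FR NT (horizontal axis), with the calls of limma in colour, the solid line marking equal signal and the dashed lines an 8-fold change. Called rises of 8-fold and over (1094) start from low and middle signals, and called falls of 8-fold and over (2027) from middle and high signals.

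The starting level went along with the direction of the change. Among the 9548 probe sets with an FR NT signal between 5 and 8, 29.7% were called higher and 20.5% lower. Between 8 and 11 the shares were 33.7% and 33.8% of 10258. Between 11 and 14 they were 26.8% higher and 46.8% lower of 4220, and from 14 upwards 15.6% higher and 53.1% lower of 750. Thus more than 1 in 2 of the probe sets with the highest signal in FR NT were lower in FR CA. The called rises started at a median FR NT signal of 8.01 and reached 9.75 in FR CA, while the called falls had a median of 7.25 in FR CA, against 9.51 in FR NT.

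Large changes followed the starting level more closely still. Of the 750 strongest probe sets, 138 (18.4%) fell at least 8-fold and 0 rose at least 8-fold. Between 11 and 14, 496 (11.8%) fell and 14 (0.332%) rose by that much. Between 2.94, the mean of the FR NT medians, and 5, 346 probe sets (5.94%) rose at least 8-fold. The floor leaves no room for an 8-fold fall from a signal under 5, and the top of the scale, 16.7 on the FR NT arrays, limits rises of the strongest probe sets in the same way. Because the FR NT signal sits in both the starting level and the change, the starting level was also taken from the FS NT arrays, which have no part in the change. The shares then differed little, at 14.9% higher and 53.1% lower from 14 upwards and 29.7% higher and 20.2% lower between 5 and 8. The typical change was larger than the spread between arrays. Between 8 and 11 the median size of the change was 1.00, while the median difference was 0.174 between the FR CA arrays and 0.193 between the FR NT arrays.

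**Figure D2:**
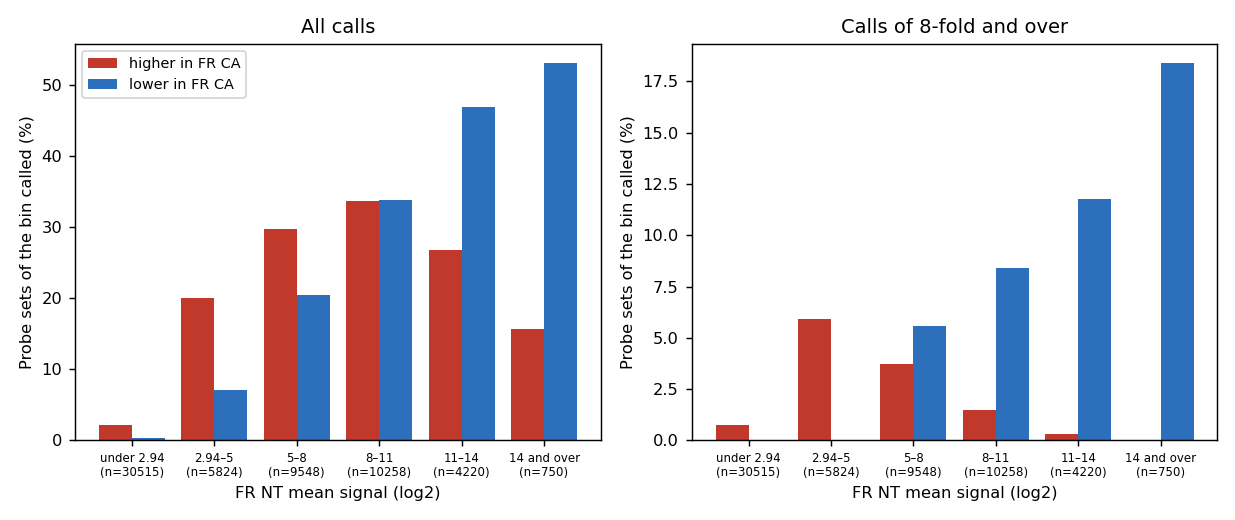
Share of the probe sets of each bin of FR NT signal (log2, horizontal axis) that were called higher (red) or lower (blue) in FR CA, for all calls (left) and for calls of 8-fold and over (right). The share called lower climbs from 20.5% between 5 and 8 to 53.1% from 14 upwards, and the share called higher is greatest between 8 and 11, at 33.7%.

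Some transcripts crossed the whole range. A signal under the median on both FR NT arrays and over 8 on both FR CA arrays was seen for 92 called probe sets. The reverse, a signal over 8 on both FR NT arrays and under the median on both FR CA arrays, was seen for 115. The widest of all had no gene name. Probe set Ta.2638.1.S1_at stood at 16.25 and 16.39 in FR CA, against 2.46 and 2.39 in FR NT, a rise of at least 10656-fold (adjusted p = 1.02e-05). Ta.14247.1.S1_at stood at 15.41 and 15.27 in FR CA, against 2.33 and 2.33 in FR NT, at least 5421-fold higher (adjusted p = 1.64e-06). Both thus lay near the top of the scale in FR CA and under the array median in FR NT. In the other direction, TaAffx.79227.1.S1_at stood at 2.15 and 2.33 in FR CA, against 14.85 and 14.56 in FR NT, at least 3645-fold lower (adjusted p = 1.54e-05). Ta.9671.3.S1_a_at stood at 2.50 and 2.20 in FR CA, against 14.27 and 14.40 in FR NT, at least 2815-fold lower (adjusted p = 1.87e-05).

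Of the LEA and dehydrin genes outside the heat maps of the study, all 4 were called higher on their strongest probe set, and Rab15 and LEA1 were among the 12 genes with the largest rises. By probe set, 6 of 9 were higher, 0 lower and 3 not called, with a median change of 2.76 beside 0.00 over all tested. Of all probe sets 15.3% were called higher, and of those above the median 29.3%. Rab15, a dehydrin named for its response to abscisic acid, stood at 13.98 and 14.43 in FR CA, against 2.82 and 2.81 in FR NT. It was at least 2464-fold higher (change 11.39, SE 0.16, adjusted p = 1.76e-05), and its other probe sets rose by 9.9 and 9.0. LEA1 stood at 12.53 and 12.71 in FR CA, against 2.43 and 2.43 in FR NT, at least 820-fold higher (adjusted p = 6.49e-06). The Em genes, which code for LEA proteins best known from the maturing embryo, rose far less. EMH2 was at 5.53 and 6.08 in FR CA, against 2.96 and 3.13 in FR NT (6.77-fold, adjusted p = 0.000899). Its probe sets Ta.25025.1.S1_at (change 1.75) and Ta.25025.1.S1_s_at (0.76) were not called. EM was at 3.93 and 4.01 in FR CA, against 2.28 and 2.15 in FR NT, at least 2.04-fold higher (adjusted p = 0.00246). Its probe set Ta.2798.1.S1_x_at stood at 2.99 on each FR array and was not called.

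The 12 genes with the largest rises, which include Rab15 and LEA1, rose by 6.15 to 12.98 on the log2 scale (adjusted p from 2.69e-06 to 0.000285). The other named gene among them was PIMT, a methyltransferase that repairs aged proteins. It stood at 9.77 and 9.46 in FR CA, against 3.76 and 3.17 in FR NT (70.9-fold). The other 9 carry only LOC symbols. They had signals of 9.97 to 15.87 in FR CA, against 2.15 to 7.67 in FR NT. LOC542888 rose the most. It stood at 15.30 and 15.12 in FR CA, against 2.23 and 2.23 in FR NT, at least 4935-fold higher, and its second probe set rose by 10.88. LOC543264 stood at 13.91 and 14.36 in FR CA, against 2.15 and 2.31 in FR NT, at least 2346-fold higher, but its second probe set was not called (0.09). LOC542908 stood at 15.75 and 15.87 in FR CA, against 6.78 and 7.20 in FR NT (451-fold). Of its 3 probe sets 1 was called higher and 1 lower. LOC100125736 (415-fold), LOC543479 (243-fold), LOC543084 (227-fold) and LOC542792 (227-fold) followed. LOC543396 (93.6-fold) and LOC543263 (83.3-fold) completed the group.

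Falls of a similar size were seen for the histones, the proteins that package new DNA in dividing cells. All 5 histone genes of the list were called lower on their strongest probe set, and 17 of 18 probe sets were lower and 1 was higher (median -6.53 beside 0.00 over all tested). Of all probe sets 13.6% were called lower, and of those above the median 26.0%. H2A-9 stood at 3.74 and 3.96 in FR CA, against 13.82 and 13.95 in FR NT (1050-fold lower, adjusted p = 8.14e-05). All 6 of its probe sets were lower, with changes of -10.04 to -5.95. wcH2B-8 stood at 4.45 and 4.55 in FR CA, against 14.49 and 14.47 in FR NT (1009-fold lower, adjusted p = 9.3e-06), and its 7 probe sets had changes of -9.98 to -5.97. H2A-2 was at 4.01 and 4.22 in FR CA, against 11.05 and 10.23 in FR NT (92.3-fold lower). wcH2B-6 was at 9.03 and 8.99 in FR CA, against 14.71 and 14.21 in FR NT (43.7-fold lower). Histone signals thus lay in the middle or lower part of the range in FR CA, against the upper part in FR NT. H2A-3 had 2 probe sets in opposite directions. The stronger was at 8.88 and 9.19 in FR CA, against 14.00 and 13.86 in FR NT (29.8-fold lower). The weaker was at 6.35 and 6.54 in FR CA, against 5.18 and 5.73 in FR NT, a change of 0.99 (adjusted p = 0.0478) that was not called with the FR arrays alone (adjusted p = 0.139) or relative to the spike-ins (0.28, adjusted p = 0.516). Several histone probe sets are of the x_at or s_at type, which can bind transcripts of related genes, so that their falls are not independent of each other.

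The 12 genes with the largest falls fell by 7.17 to 11.33 (adjusted p from 9.3e-06 to 0.001). H2A-9 and wcH2B-8 were among them. So was hsp16.9A, a small heat shock protein that keeps unfolded proteins from clumping. It stood at 2.36 and 2.36 in FR CA, against 11.30 and 12.82 in FR NT, at least 583-fold lower (change -9.70, SE 0.78, adjusted p = 0.001). Its FR NT arrays were 1.53 apart. FKBP70, a co-chaperone and the other member of the heat shock list, was at 12.23 and 12.50 in FR CA, against 12.47 and 12.37 in FR NT, and was not called (-0.06, 95% interval -0.37 to 0.25). The other 9 genes carry only LOC symbols. They had signals of 2.15 to 6.20 in FR CA, against 8.96 to 14.04 in FR NT. LOC778394 fell the most. It stood at 2.74 and 2.50 in FR CA, against 13.86 and 14.04 in FR NT, at least 2158-fold lower, and its second probe set fell by 9.89. LOC542853 was 694-fold lower, and LOC543256, LOC543233 and LOC606352 were at least 685-fold, 301-fold and 221-fold lower. LOC606359 was at least 189-fold lower, LOC100037556 167-fold lower, LOC543147 at least 109-fold and LOC543409 at least 92.4-fold lower. Where these genes had several probe sets, all of them were called lower.

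**Figure D3:**
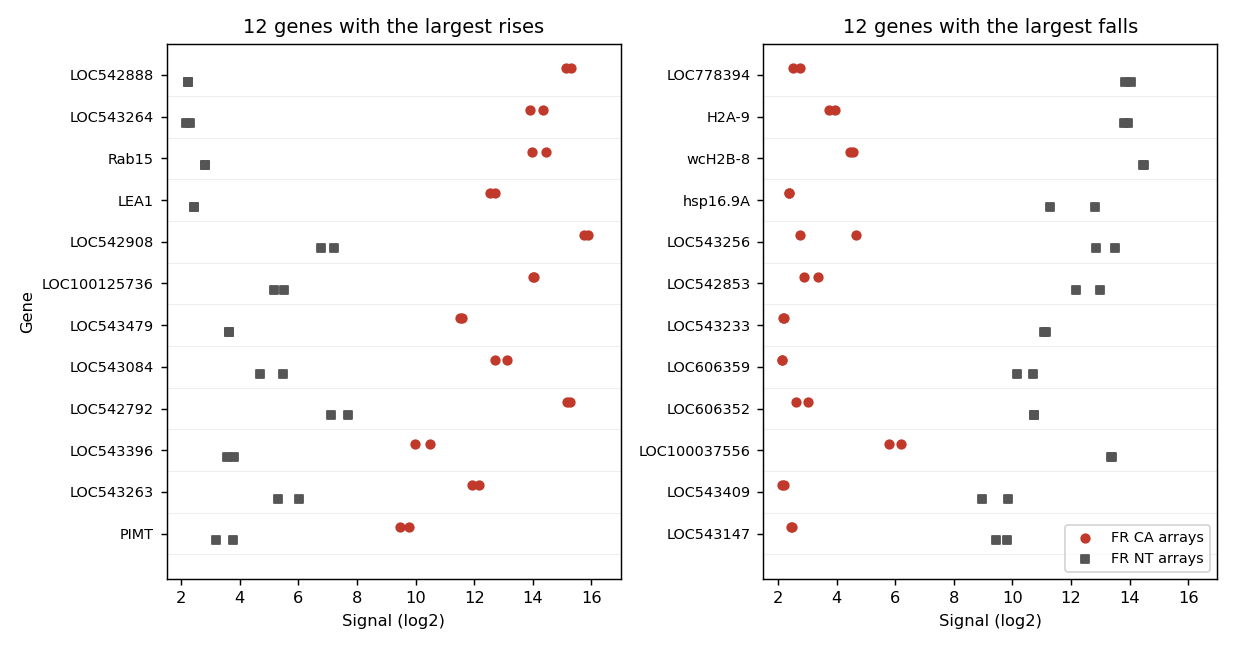
Log2 signal on each array (FR CA, red circles; FR NT, grey squares; 2 arrays each) of the 12 genes with the largest called rises (left) and the 12 with the largest called falls (right), the matched Cbf and Cor/Lea genes of the study left out. Genes were taken only where the FR CA and FR NT arrays did not overlap, and the smallest change is 6.15 among the rises and 7.17 among the falls.

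Of the 5 photosynthesis genes, which serve here as the leaf markers, 4 were called lower on their strongest probe set and 0 higher. By probe set, 5 of 34 were lower and 29 were not called, a share near the 13.6% called lower over all probe sets. Most of the 34 belong to the single gene rbcL, described below, and no rbcL probe set was called. This share therefore mainly counts rbcL probe sets, and the 5 falls are those of PRK, OEE2, OEE1 and petC. However, 24 of the 34 lay under the array median on each FR array. Of the 10 above the median in at least 1 group, 5 were called lower, beside 26.0% of all such probe sets. The rest of the 10 were probe sets of rbcL. PRK, phosphoribulokinase of the carbon fixation cycle, stood at 4.74 and 4.78 in FR CA, against 11.53 and 12.10 in FR NT (133-fold lower, adjusted p = 0.000242). OEE2, a subunit of the oxygen-evolving complex, stood at 10.16 and 10.04 in FR CA, against 14.00 and 13.91 in FR NT (14.5-fold lower), and its second probe set fell by 4.99. The decline was smaller for 2 other components of the light reactions. OEE1, of the same complex, was at 13.46 and 13.14 in FR CA, against 14.56 and 14.71 in FR NT (2.52-fold lower). petC, the Rieske protein of the electron transport chain, was at 13.24 and 13.30 in FR CA, against 13.97 and 14.21 in FR NT (1.76-fold lower, adjusted p = 0.00964, or 0.051 without FR CA replicate 1). The strongest probe set of rbcL, the large subunit of Rubisco, encoded in the chloroplast, was at 16.35 and 16.50 in FR CA, against 16.59 and 16.65 in FR NT, and was not called (-0.19, 95% interval -0.54 to 0.15). By the study's methods the crown is a part that does not photosynthesise, and it was cut free of leaves and roots. The arrays measure whole tissue, so that fewer cells of a type and less RNA per cell cannot be told apart. The leaf markers differed between the same arrays as every other gene group given here, and their part in those changes was not tested.

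Of the named enzymes of carbon metabolism, FBP, GAPN and Pgk-1 were lower on at least 1 probe set. FBP, fructose-1,6-bisphosphatase, stood at 4.04 and 3.75 in FR CA, against 8.82 and 10.26 in FR NT (50.0-fold lower, adjusted p = 0.00131). Its second probe set was at 4.98 and 4.77 in FR CA, against 4.77 and 5.09 in FR NT, and was not called (-0.06). GAPN, a glyceraldehyde-3-phosphate dehydrogenase that forms NADPH, stood at 2.77 and 3.36 in FR CA, against 8.34 and 9.98 in FR NT, at least 65.8-fold lower (adjusted p = 0.00424). The FR NT arrays of GAPN were 1.63 apart and those of the called FBP probe set 1.44 apart. Neither probe set overlapped between the groups, as holds for every called probe set. Pgk-1, phosphoglycerate kinase, was at 11.69 and 11.64 in FR CA, against 12.97 and 13.14 in FR NT (2.62-fold lower). These 3 genes were chosen after their values were seen. In the list of sugars, fructan and starch, 2 of 5 genes were called lower, 0 higher and 3 not (median 0.00 by gene), beside 13.6% of all probe sets called lower and 26.0% of those above the median. BMY1, a beta-amylase, stood at 3.90 and 3.54 in FR CA, against 7.97 and 8.62 in FR NT (23.8-fold lower). 1-FEH, a fructan 1-exohydrolase that breaks down fructan, stood at 9.80 and 10.30 in FR CA, against 12.64 and 12.40 in FR NT (5.53-fold lower). Both of these degrade storage carbohydrate. AGP-S, the small subunit of the first enzyme of starch synthesis, was at 12.27 and 12.29 in FR CA, against 12.32 and 12.25 in FR NT, with a 95% interval of the change from -0.13 to 0.12. 6-FEH, a related exohydrolase, was not called on any of its 3 probe sets (1 at an unadjusted p under 0.05).

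Among the antioxidant genes, the directions were mixed. GSTZ1, a zeta-class glutathione S-transferase, was higher on all 3 of its probe sets. The strongest stood at 11.27 and 11.35 in FR CA, against 8.45 and 8.35 in FR NT (7.52-fold higher, adjusted p = 5.43e-05). The other 3 genes of the list were lower on their strongest probe sets. CAT1, a catalase, which removes hydrogen peroxide, stood at 4.14 and 3.85 in FR CA, against 8.66 and 9.47 in FR NT (33.4-fold lower). Trx-M, an m-type thioredoxin of the chloroplast, was at 9.63 and 9.94 in FR CA, against 11.95 and 11.89 in FR NT (4.39-fold lower). Prx1 was 2.14-fold lower. By probe set 3 of 10 were higher, 5 lower and 2 not called (median -0.54). Of all probe sets 15.3% were called higher and 13.6% lower, and of those above the median 29.3% and 26.0%. CAT1 and Trx-M fell alongside the leaf markers, whose part was not tested.

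Of 7 cytoskeleton genes 5 were called lower on the strongest probe set and 0 higher, and by probe set 10 of 12 were lower (median -0.63), beside 13.6% of all probe sets and 26.0% of those above the median. TUBA, an alpha-tubulin, had probe sets of very different behaviour. Ta.723.1.S1_at was at 2.15 and 2.32 in FR CA, against 8.73 and 9.13 in FR NT, at least 66.4-fold lower. Ta.812.1.S1_x_at was at 15.83 and 15.78 in FR CA, against 15.99 and 15.91 in FR NT, and was not called (-0.15). Of the beta-tubulins, tubb1 was at 13.26 and 13.21 in FR CA, against 15.25 and 15.09 in FR NT (3.82-fold lower). tubb3 fell by 1.01, Tubb4 by 0.56 and tubb2 by 0.50. The strongest probe set of Tubb5 was at 14.05 and 13.64 in FR CA, against 13.91 and 14.04 in FR NT, and was not called (-0.13), while its other 3 were called lower. The calls of tubb2 and Tubb4 were lost when an FR NT array was left out (adjusted p = 0.184 or 0.0913 for tubb2, and 0.0602 or 0.0719 for Tubb4). Profilin-1, which binds actin, was 2.24-fold lower. In the cell wall list both genes were lower. COMT1, a methyltransferase of lignin synthesis, stood at 11.20 and 11.28 in FR CA, against 14.24 and 14.04 in FR NT (7.46-fold lower). XTH, which loosens and rejoins xyloglucan in growing walls, stood at 8.92 and 9.0 in FR CA, against 11.86 and 11.86 in FR NT (7.44-fold lower).

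In the defence list 2 of 6 genes were lower, 0 higher, and 4 were not called, among them the purothionins, with signals at or near the floor. By probe set 3 of 9 were lower, beside 13.6% of all probe sets. Only 3 of the 9 lay above the median in at least 1 group. These were the 3 called lower, beside 26.0% of all such probe sets. LTP3, a lipid transfer protein, stood at 12.67 and 12.68 in FR CA, against 14.56 and 14.75 in FR NT (3.94-fold lower). PR5, a thaumatin-like protein, stood at 6.04 and 6.67 in FR CA, against 8.37 and 8.13 in FR NT (3.71-fold lower), with an adjusted p of 0.00592, or 0.053 with the FR arrays alone. TaGlu1a, a beta-glucosidase that releases defence compounds, stood at 9.36 and 9.41 in FR CA, against 14.20 and 14.37 in FR NT (29.9-fold lower, adjusted p = 2.43e-05). A different direction was seen for WGA2, a wheat germ agglutinin, which binds chitin. It stood at 14.20 and 14.15 in FR CA, against 8.99 and 9.75 in FR NT (28.0-fold higher, adjusted p = 0.00042). PCS1, phytochelatin synthase, which makes metal-binding peptides, stood at 9.40 and 9.60 in FR CA, against 7.14 and 6.92 in FR NT (5.53-fold higher). lgul, lactoylglutathione lyase of the methylglyoxal pathway, was at 7.44 and 7.79 in FR CA, against 9.53 and 9.77 in FR NT (4.09-fold lower). TaGlu1a, WGA2, PCS1 and lgul were chosen after their values were seen.

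Genes of protein synthesis went in both directions, and some genes of basic functions hardly differed. Of the 6 genes of the protein synthesis list, 3 were higher, 2 lower and 1 was not called. By probe set 3 of 9 were higher, 2 lower and 4 not called. Of all probe sets 15.3% were called higher and 13.6% lower, and of those above the median 29.3% and 26.0%. RPS29, a protein of the small ribosomal subunit, stood at 6.02 and 6.32 in FR CA, against 10.17 and 10.14 in FR NT (15.8-fold lower), and its second probe set was not called (0.34). RPL9, of the large subunit, was at 10.62 and 10.97 in FR CA, against 12.38 and 12.31 in FR NT (2.92-fold lower). eIF4E, which binds the mRNA cap, was 0.97 higher, but only 0.27 higher relative to the spike-ins (adjusted p = 0.409). Eif4B, another initiation factor, was 0.36 higher as deposited and -0.34 relative to the spike-ins, and its call was lost with the FR arrays alone (adjusted p = 0.164). UBC1 conjugates ubiquitin and does not act in protein synthesis, although the list holds it. It was 0.88 higher, and 0.18 relative to the spike-ins (adjusted p = 0.586). TBP1, a TATA-binding protein of the basal transcription machinery, chosen after its values were seen, was 1.20 higher, and 0.50 relative to the spike-ins (adjusted p = 0.124). SAHH, which recycles the by-product of methylation reactions and was chosen in the same way, was at 15.19 and 15.36 in FR CA, against 16.39 and 16.30 in FR NT (2.10-fold lower). ha1, a proton pump of the plasma membrane, was at 13.71 and 13.73 in FR CA, against 13.73 and 13.65 in FR NT, with a 95% interval of the change from -0.20 to 0.25. None of the 3 gibberellin 20-oxidase genes, whose enzymes make growth hormone precursors, was called (0 of 4 probe sets in limma, 0 at an unadjusted p under 0.05, changes from -0.57 to 0.27). The list of seed storage genes was 1 higher and 7 not called by gene. The higher one was an avenin-like protein gene, with 12.14 and 12.54 in FR CA, against 11.17 and 10.70 in FR NT (adjusted p = 0.00835). The other 3 probe sets of that gene lay at the floor.

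**Figure D4:**
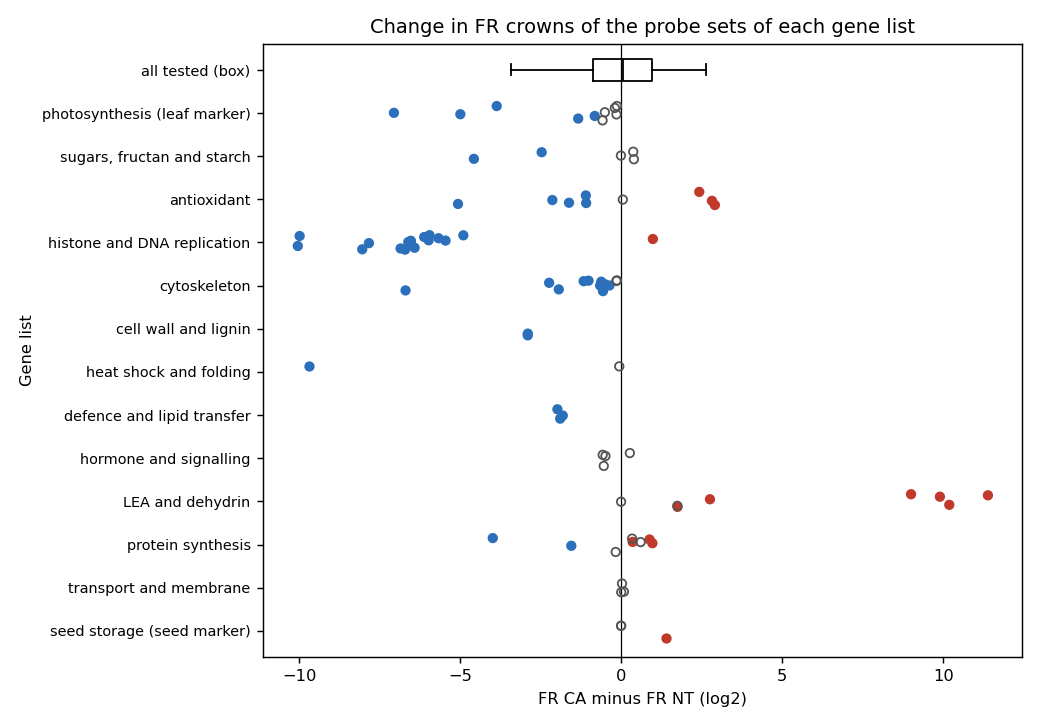
Change in FR crowns (FR CA minus FR NT, log2, horizontal axis) of each probe set of the gene lists that lay above the array median in at least 1 group, with called rises in red, called falls in blue and probe sets not called as open circles. The box shows the middle 50% of all 31555 such probe sets with whiskers at 5% and 95%, and the histone list lies left of it except for 1 probe set, while the LEA and dehydrin list lies at 0 or to the right.

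Whether the response differed from that of the freeze-susceptible line was tested as the difference of the 2 changes. It was called for 66 of 61115 probe sets (0.108%). An unadjusted p under 0.05 was found for 2734, no more than that threshold alone would give without any difference. Of the 66, 39 had all 4 group means under 3. None of the 24 genes with the largest changes had a called difference (5 had an unadjusted p under 0.05). All 24 were also called in FS, with changes of 5.49 to 13.17 for the rises and -11.10 to -6.98 for the falls. How far the lines could still differ is given by the intervals. For Rab15 the interval of the difference was -1.33 to -0.18 and for LEA1 -0.58 to -0.06, both below 0. For wcH2B-8 it was 0.06 to 0.70, above 0. None of these passed the adjustment in limma (adjusted p = 0.833 for Rab15 and 0.918 for wcH2B-8).

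Of the 66, 14 started from an FR NT signal over 5. This cut was chosen after values were seen, and the direction of the others of the 66 is not given here. In all 14 the change in FR minus the change in FS was above 0, which a smaller fall in FR also gives. FS CA was lower than FS NT, with a call, in 13 of them, and FR CA was called lower than FR NT in 10 and higher in 2. Ta.7378.22.S1_at, 1 of the 14, has no symbol but shares the cluster number of its ID with the wcH2B-8 probe sets (difference 0.86). LOC542847 was the only probe set of the 66 with a gene symbol. It stood at 12.77 and 12.64 in FR CA, against 13.55 and 13.56 in FR NT, and at 9.69 and 9.65 in FS CA, against 13.40 and 13.59 in FS NT. Its fall was thus 0.85 in FR and 3.83 in FS, a difference of 2.97 (95% interval 2.68 to 3.27, adjusted p = 0.00923). The NT arrays of the lines overlapped, and the CA arrays of the lines stood apart. TaAffx.71647.1.A1_at was at 11.19 and 11.34 in FR CA, against 13.56 and 13.25 in FR NT, and at 6.70 and 6.96 in FS CA, against 13.27 and 13.61 in FS NT (difference 4.47, adjusted p = 0.0312). TaAffx.85615.1.S1_at did not change by a call in FR, at 10.90 and 11.04 in FR CA, against 10.94 and 10.75 in FR NT, and was at 7.75 and 7.89 in FS CA, against 10.78 and 10.94 in FS NT (difference 3.16, adjusted p = 0.0187). The number of calls was sensitive to the fit. It was 22 with the replicate number as a block, 15 with robust variances, and 888 to 1862 with any 1 array left out.

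**Figure D5:**
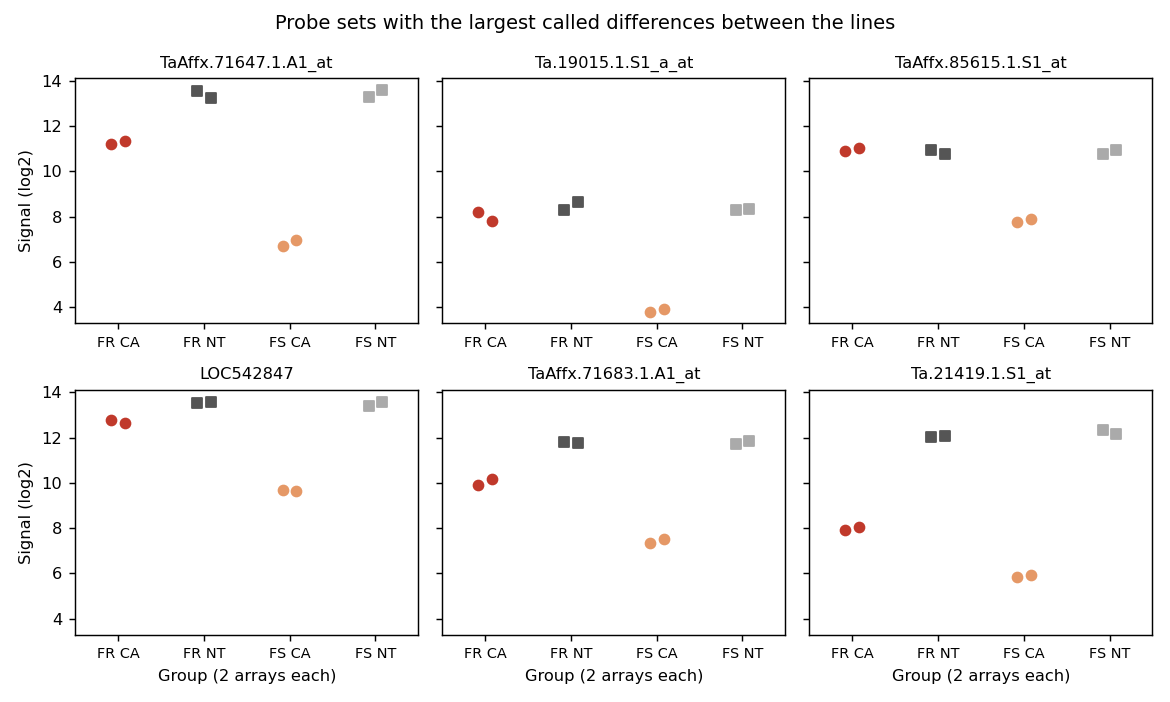
Log2 signal on each array (2 per group) of the 6 probe sets with the largest called differences in response among those with an FR NT signal over 5. In each panel the FS CA arrays are the lowest of the 4 groups, and the differences run from 2.29 to 4.47.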

How the data were processed

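Crown RNA was hybridised to 8 one-colour Affymetrix wheat arrays, 2 for each of 4 groups, taken from the deposited labels. The deposited values are log2 signals, which the authors background-corrected and normalized together with gcRMA, and 1 table holds 61290 probe sets per array. Background correction of this kind sets dim probe sets to a floor. The 175 control probe sets were set aside and used only for checks. Differences were fitted in R 4.3.3 with limma 3.58.1 on the values as deposited, with a mean for each of the 4 groups over all 8 arrays, empirical Bayes variances that follow the signal level (residual degrees of freedom 4, prior 0.623) and Benjamini-Hochberg adjustment over 61115 probe sets. The design has 2 arrays a group, and their number limits the precision. The fit was tested on simulated data with far fewer changed probe sets than were called here. Changes of 0.5, 1, 2 and 4 (log2, 50 probe sets each) were called in 2%, 18%, 60% and 80%. With so few changed probe sets the adjustment is stricter, so these shares do not give the power of the comparison made here. A probe set that was not called may still differ. Figures were drawn with matplotlib 3.10.9.

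Of the probe sets, 1273 carry 1 gene symbol in the annotation of the array (771 symbols) and 59842 carry none. A name other than a LOC symbol was found for 200 probe sets (102 genes), through the symbols and synonyms of the RefSeq gene table of the Chinese Spring assembly, and the 15 gene lists were matched to these. For 3 genes a list match was removed and 2 genes were added, by name, and 2 lists (transcription factors and KNOX genes) matched no gene. Named genes are the 12 with the largest rise and the 12 with the largest fall among called symbols whose FR arrays did not overlap between the groups and whose higher group mean exceeded the array median, with several probe sets counted once. Of the Cbf and Cor/Lea genes, 28 (35 probe sets) could be matched to a symbol, through the study's heat maps or by name, and were left out of this ranking. Others of them could not be matched and were not removed. Beyond these, list members with the largest change in each direction and the 2 largest rises and falls without a gene name are given, and other genes are marked as chosen after their values were seen. The comparison, the genes and the lists were chosen with earlier results of these data known. Alternatives were the FR arrays alone, a replicate block, no trend, robust variances, a filter and a floor at the array median, centring on medians or spike-ins, each array left out, and the starting level from FS NT arrays.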

Additional observations from a re-analysis of the deposited data

Results flagged for a closer look

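The response of 14 probe sets with an FR NT signal over 5 differed between the lines by limma's test of the difference at an adjusted p under 0.05. The cut at 5 was chosen after values were seen. The difference (change in FR minus change in FS, log2) was 4.47 for TaAffx.71647.1.A1_at, 3.96 for Ta.19015.1.S1_a_at, 3.16 for TaAffx.85615.1.S1_at, 2.97 for LOC542847 (Ta.2882.1.S1_s_at), 2.61 for TaAffx.71683.1.A1_at and 2.29 for Ta.21419.1.S1_at. It was 1.61 for Ta.556.2.A1_at, 1.34 for Ta.18463.1.S1_x_at, 1.18 for Ta.20205.1.A1_s_at, 0.86 for Ta.7378.22.S1_at, 0.84 for Ta.16218.1.A1_a_at, 0.76 for Ta.4958.1.A1_at, 0.68 for Ta.16112.1.S1_at and 0.43 for Ta.9651.1.A1_at.

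Control probe sets, which entered no comparison, also differed between FR CA and FR NT on all arrays of the groups. The poly-A spike-ins were 0.70 higher in FR CA. Among the wheat control transcripts, 18S ribosomal RNA was 1.73 higher (5.90 and 7.02 in FR CA, against 4.88 and 4.58 in FR NT), glucose-6-phosphate dehydrogenase 0.97 higher (12.47 and 12.52 in FR CA, against 11.52 and 11.54 in FR NT), sucrose synthase 0.92 higher (14.08 and 14.19 in FR CA, against 13.29 and 13.16 in FR NT) and ubiquitin 0.21 higher (14.69 and 14.96 in FR CA, against 14.69 and 14.55 in FR NT, with the nearest arrays equal to 2 decimals). The largest difference among these controls was in the other direction, -3.02 for the CYP86 transcript (5.55 and 5.75 in FR CA, against 8.50 and 8.85 in FR NT).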

How the results depend on the processing

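The count of FR calls (17687) was 13064 with the FR arrays alone, 17267 without the intensity trend, 15564 with robust variances and 19947 of 31555 with probe sets above the median only. It was 15969 to 17122 with 1 array left out (7815 to 10187 higher and 6935 to 8477 lower). It rose to 48380 with low values raised to the median (37591 lower), 41893 with median centring (32758 higher) and 46129 with spike-in centring (5174 higher and 40955 lower), since a value at the floor then takes the shift of its array. Spike-in centring above the median only, chosen after seeing the data, gave 4696 higher and 12963 lower. Of the 3121 calls of 8-fold and over, 2899 kept their call and direction with the FR arrays alone, and at least 3012 in every other alternative. The counts by starting level stayed within 1.5 times with FS NT as the start.

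The 66 differences between the lines became 22 with the replicate block, 15 with robust variances, 29 above the median only, 192 with spike-in centring, and 888 to 1862 with 1 array left out; the lone array of a group then borrows the spread of the other groups. The cause was not tested.

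Replicate numbers are shared by all groups, and the labels do not say what a number marks. Same-numbered arrays deviated together at r = 0.08 to 0.39, over 0.1 in 5 of 6 pairs of groups, and the spike-ins and the 3′ excess of 3 wheat controls were higher on replicate 2 in all 4 groups. The arrays were not treated as paired, and the block gave 17527 FR calls (9363 higher and 8164 lower), 16435 of them among the 17687.

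Of 98 probe sets followed through 17 settings, 84 were called, 11 of these lost the call in at least 1 setting and 2 reversed. Relative to the spike-ins, with or without the filter, Eif4B (-0.34), Ta.4958.1.A1_at (-0.43), ha1 (-0.67), TaAffx.85615.1.S1_at (-0.58), GA20ox1a (-0.43), 6-FEH (-0.33) and the second probe set of RPS29 (-0.36) reversed. With median centring AGP-S (0.061), FKBP70 (0.0084) and the second probe set of FBP (0.010) did. With 1 array left out AGP-S ranged from -0.041 to 0.031, FKBP70 from -0.20 to 0.080, ha1 from -0.013 to 0.070, Tubb5 from -0.34 to 0.072 and the second probe set of FBP from -0.22 to 0.11. Of these only Eif4B and Ta.4958.1.A1_at were called as deposited. The FR NT and FR CA arrays, 2 each, are what limits small changes.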

Other observations

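The 2 arrays of non-acclimated crowns differed for a few genes by more than the usual spread, and not in the same way in each line. GAPN was at 8.34 on replicate 1 and 9.98 on replicate 2 of FR NT, and at 9.84 and 8.31 on those of FS NT. hsp16.9A was at 11.30 and 12.82 in FR NT and at 12.94 and 11.14 in FS NT. GA20ox1d (Ta.141.1.S1_at) was at 5.66 and 6.77 in FR NT and at 6.55 and 5.67 in FS NT. For Rab15 (Ta.2704.1.S1_at), replicate 2 was the higher in both lines, with 4.60 and 6.69 in FR NT and 3.54 and 5.50 in FS NT. These genes were chosen after their values were seen.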
